A study of Homo sapiens with 6 samples.

Results

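The TRIM genes encode proteins of the tripartite motif family, and 74 of them, among 20098 protein-coding genes of the GENCODE annotation of hg19, were examined for active histone marks in oral squamous cell carcinoma (OSCC) cells after knockdown of the lncRNA DLEU1. The members were all protein-coding genes whose symbol is TRIM followed by a number, with a letter allowed after it, and with 1 gene left out. A gene was called marked if a ChIP-seq region of a deposited peak list came within 1 kb of one of its annotated TSSs. The 5 genes TRIM5, TRIM6, TRIM22, TRIM34 and TRIM68 on 11p15 are described apart from the other 69, and were picked with earlier results known. TRIM3, TRIM21 and TRIM66 lie in the same band and are counted among the 69. The cells were HSC3, an established OSCC cell line grown in medium with serum, transfected with a control siRNA (siCONT) or with an siRNA against DLEU1 (siDLEU1) and collected after 72 h. H3K27ac and H3K4me3 were each measured in 1 library per siRNA, so replicate error could not be assessed and no test was made. In the siCONT and siDLEU1 lists there were 19705 and 17672 H3K27ac regions, and 58582 and 56943 H3K4me3 regions. The number of fragments at the summit of each region was recovered from its fold enrichment and p, and gave libraries of 21.5 M and 29.4 M reads for H3K27ac and of 28.5 M and 22.3 M reads for H3K4me3, in the same order. All 7 squamous epithelial genes listed as markers (KRT5, KRT14, KRT17, KRT6A, TP63, CDH1 and ITGA6) had regions of both marks in every list, whereas of 7 leukocyte and muscle genes only CD14 did.

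A TRIM protein typically carries a RING finger, B-boxes and a coiled coil, and many act as E3 ubiquitin ligases, which attach ubiquitin to other proteins with the help of an E2 enzyme. A large share of the family takes part in the defence against viruses: some members, such as TRIM5, bind viral components directly, others tune the sensing of viral RNA and DNA, and several are induced by interferon. H3K4me3 marks the start sites of genes that are active or poised, and H3K27ac marks active start sites and enhancers. Interferon-stimulated genes are often switched on through a promoter motif, the interferon-stimulated response element (ISRE).

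The sequences just upstream of the canonical TSS of TRIM34 and TRIM68 are shown because these 11p15 promoters differ in the motif they hold and carry the regions described below. Capitals mark letters that match the core of the ISRE, searched as GAAANNGAAA or, for the other strand, TTTCNNTTTC. All were read from GRCh37, 5′ to 3′ along the strand of the gene, with positions counted back from the base before the TSS as -1. The 250 bases of TRIM34 (chr11:5645981-5646230, plus strand) and of TRIM68 (chr11:4629462-4629711, minus strand) end at -1.
TRIM34: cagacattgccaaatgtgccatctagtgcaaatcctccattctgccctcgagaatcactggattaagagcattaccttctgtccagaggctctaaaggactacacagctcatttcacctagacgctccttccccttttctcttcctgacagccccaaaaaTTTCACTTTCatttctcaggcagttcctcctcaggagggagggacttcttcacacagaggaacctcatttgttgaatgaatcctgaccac
TRIM68: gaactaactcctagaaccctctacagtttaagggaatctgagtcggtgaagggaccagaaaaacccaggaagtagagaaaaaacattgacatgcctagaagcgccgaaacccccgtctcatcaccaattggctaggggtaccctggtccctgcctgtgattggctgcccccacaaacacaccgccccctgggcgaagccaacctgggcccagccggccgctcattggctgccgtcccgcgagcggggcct

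The TRIM34 promoter held the ISRE core at -90, and the TRIM68 promoter held none. To set the ISRE cores side by side, 30 bases around the match are given for the other genes with the match before the canonical TSS and H3K27ac within 1 kb of it: TRIM5 (chr11:5706312-5706341, minus strand), TRIM14 (chr9:100881511-100881540, minus strand), TRIM26 (chr6:30181355-30181384, minus strand) and TRIM44 (chr11:35684278-35684307, plus strand).
TRIM5: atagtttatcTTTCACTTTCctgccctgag
TRIM14: acggccgaggTTTCGGTTTCccttgggagc
TRIM26: cgcctgaTTTCAGTTTCCATTTCgctgccc
TRIM44: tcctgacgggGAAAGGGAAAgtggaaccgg

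TRIM5 had the match at -27, with the same 10 letters as TRIM34, and TRIM14 had it at -26. TRIM26 had 2 overlapping matches, at -194 and -188 and TRIM44 had 1 at -35. Across the window from 250 bases before to 50 after the TSS, 8 of the 74 TRIM genes (10.8%) held the ISRE core, against 668 of all 20098 genes (3.32%). The other matches were in TRIM21, at 18 and 24 bases after the TSS, in TRIM69, whose regions lay at another TSS, and in TRIM64C, which had no region of either mark. Of the 11p15 genes described apart, TRIM6 and TRIM22 held no match, like TRIM68. Among genes with H3K27ac at the canonical TSS in siCONT cells, the shares were 6 of 39 TRIM genes (15.4%) and 339 of 11772 genes (2.88%). These are matches of letters, and whether any factor binds them was not measured.

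In siCONT cells, 41 of the 74 TRIM genes (55.4%, 95% Wilson interval 44.1 to 66.2) had an H3K27ac region at a TSS, where 61.5% of all protein-coding genes had one. The siDLEU1 list had such a region at 40 of the 74 (54.1%), against 58.5% of all genes. H3K4me3 regions were found at 41 TRIM genes in each list, with 61.2% of all genes marked in siCONT and 60.8% in siDLEU1. Both marks were present in siCONT cells at 40 TRIM genes, H3K27ac alone at TRIM36, and H3K4me3 alone at TRIM55. The intervals of shares and of the ratios below cover counting error only.

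The remaining 32 TRIM genes had no region of either mark in any list. They were TRIM10, TRIM15, TRIM17, TRIM31, TRIM40, TRIM42, TRIM43, TRIM43B, TRIM48, TRIM49, TRIM49B, TRIM49C, TRIM49D1, TRIM49D2, TRIM50, TRIM51, TRIM51G, TRIM54, TRIM58, TRIM60, TRIM61, TRIM63, TRIM64, TRIM64B, TRIM64C, TRIM67, TRIM71, TRIM72, TRIM73, TRIM74, TRIM75 and TRIM77. Among them were all 14 annotated members of a list of 16 recent primate duplicates, genes of near-identical sequence to which short reads may not map uniquely, which was not tested. Of 5 genes known from muscle (TRIM32, TRIM54, TRIM55, TRIM63 and TRIM72), TRIM32 had both marks and TRIM55, a ligase of the sarcomere, had H3K4me3, and of 7 genes known from neurons or microtubules, TRIM9, TRIM36 and TRIM46 had H3K27ac. All 4 genes of chromatin and transcription (TRIM24, TRIM28, TRIM33 and TRIM66) had both marks in every list. TRIM29, a member known from squamous epithelium, had H3K27ac at the 81.3 and 90.2 percentile, in siCONT and siDLEU1, and 8 H3K4me3 regions at its TSSs in each list, with 8032 and 8565 bp covered.

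The presence of a region went along with the CpG content of the promoter. The 39 TRIM genes with H3K27ac within 1 kb of the canonical TSS in siCONT had a median of 27 CpGs in the 300 bases around it, and the 35 without had a median of 3. Over all genes these medians were 28 and 7. The histogram of CpG counts also held marked genes of few CpGs. Among those with fewer than 10 CpGs and H3K27ac were TRIM34 with 3, TRIM5 and TRIM21 with 6, TRIM38 with 7, and TRIM6 and TRIM29 with 8. TRIM2 and TRIM69 also had few CpGs at the canonical TSS, but their regions of both marks lay at other TSSs. TRIM50, TRIM71 and TRIM74, with 35, 27 and 28 CpGs, were unmarked.

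**Figure D1:**
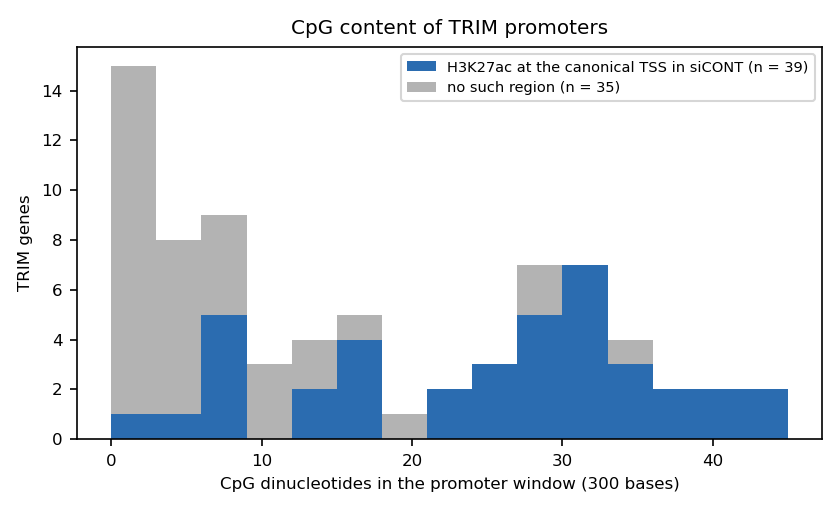
Number of TRIM genes (vertical axis) by CpG dinucleotides in the 300 bases around the canonical TSS (horizontal axis), for the 39 genes with an H3K27ac region within 1 kb of that TSS in siCONT cells (blue) and the 35 without (grey), stacked. The marked genes have a median of 27 CpGs and the unmarked genes of 3, with a group of marked genes under 10.

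Fold enrichment is set by each library and its control, so it was ranked within its list, from a percentile of 100 for the top region to 0 for a gene without a region. Of the 41 TRIM genes with H3K27ac in siCONT, 25 had a lower percentile in siDLEU1 (61.0%), and the median change was -3.54 points. Over all genes, 62.4% were lower and the median change was -4.32 points. A difference of 20 points or more was called, and 7 TRIM genes were lower by that much (17.1%, against 18.8% of all genes) and 2 were higher (4.88%, against 6.97%). The family as a whole thus stood close to the background of all genes.

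For H3K4me3, 22 of 41 TRIM genes had a lower percentile in siDLEU1, with a median change of -1.24 points, against 47.5% lower and 0.371 points over all genes. By 20 points or more, 4 TRIM genes were lower (9.76%, against 8.31% of all genes) and 3 were higher (7.32%, against 8.64%). No TRIM gene had an H3K4me3 region in siCONT alone or in siDLEU1 alone, states that held for 3.07% and 2.45% of the marked genes of each list.

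**Figure D2:**
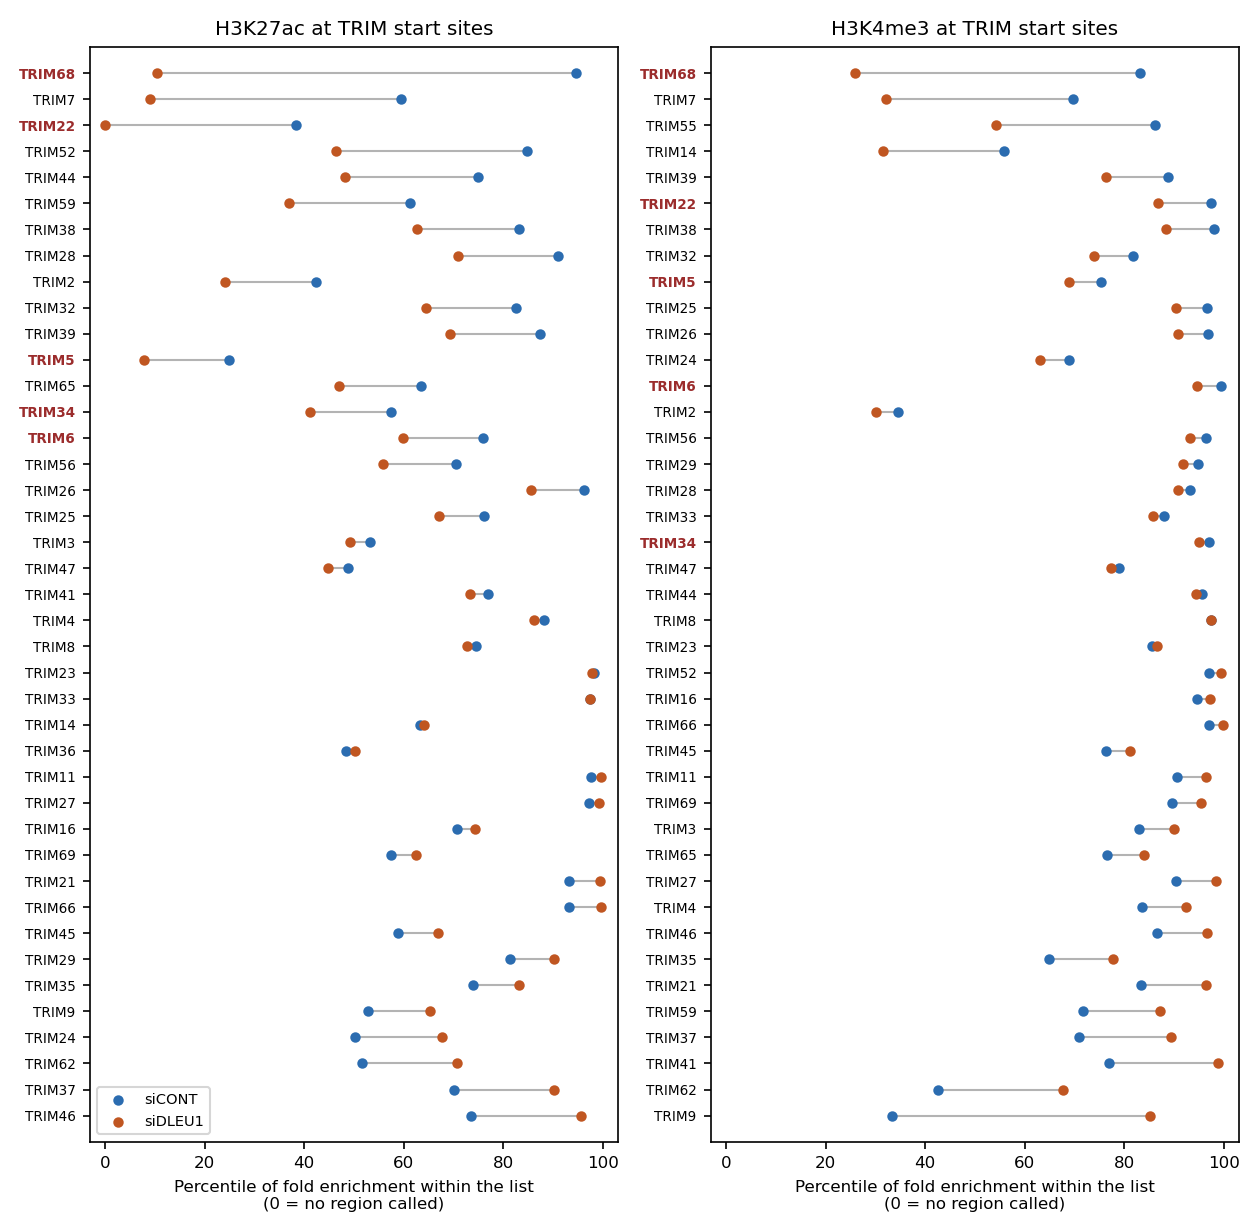
Percentile of the strongest region at the TSSs of each marked TRIM gene within its peak list (horizontal axis, 0 for no region) in siCONT (blue) and siDLEU1 (orange), for H3K27ac (left) and H3K4me3 (right), 1 library each. Genes are ordered by the change and the 5 11p15 genes described apart are in red. All 5 are lower in siDLEU1 for both marks, from -16.0 to -84.1 points for H3K27ac.

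The percentile depends on the local background of the control, which at these summits was mostly 1 control fragment or less, and the number of fragments at the summit does not. The fragments per 1 M reads (fpm) at the region with most fragments were therefore compared as well, as the ratio of siDLEU1 to siCONT. At all 40 TRIM genes with H3K27ac in both lists the ratio was below 1, with a median of 0.570 and a range from 0.411 to 0.842, and over 11726 genes the median was 0.580 with quartiles of 0.528 and 0.642. A ratio of 0.5 or less was found at 7 of the 40 TRIM genes (17.5%), against 14.6% of all genes. For H3K4me3 the median ratio was 1.19 over 41 TRIM genes and 1.17 over all genes, whose quartiles were 0.993 and 1.36. One TRIM gene, TRIM55, had an H3K4me3 ratio of 0.5 or less, as did 0.378% of all genes. Since the whole H3K27ac list lay near 0.580, a ratio is read here against that median and not against 1, and whether it came from less acetylation or from a less efficient precipitation cannot be told apart with 1 library.

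The 5 11p15 genes described apart had lower medians than the rest of the family in both marks. Their median change in percentile, which includes TRIM68 with the higher background described below, was -17.2 points for H3K27ac and -6.40 points for H3K4me3. For each mark 5 of 5 were lower, against 62.4% and 47.5% of all genes. Ranked by fragments, TRIM68 rose by 8.74 points for H3K4me3. Over the other TRIM genes the median changes in percentile were -1.07 and 1.71 points. The band as a whole was mixed: TRIM21 changed by 6.05 and 13.0 points, TRIM66 by 6.40 and 2.75, and TRIM3 by -4.04 and 6.87. The median fpm ratio was 0.485 for the 4 of them with H3K27ac in both lists and 0.881 for H3K4me3, against 0.578 and 1.19 at the other TRIM genes. TRIM6, TRIM34, TRIM5 and TRIM22 lie within 93153 bp of each other by their canonical TSSs, and TRIM68 lies 988406 bp before TRIM6. Between the outer ends of these 5 genes the annotation has 53 protein-coding genes whose symbols do not begin with TRIM, of which 2 had an H3K27ac region in each list. The first, a gene without a symbol next to TRIM34, had the same H3K27ac percentiles and fpm ratio as TRIM34. The second, OR52N2, went from a percentile of 33.7 to 7.34 with an fpm ratio of 0.447. Its H3K4me3 region was in siCONT alone. A low H3K27ac ratio here was thus not limited to TRIM genes.

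TRIM22, an interferon-induced gene whose protein restricts several viruses, was the TRIM gene with an H3K27ac region in siCONT alone. The gene occupies chromosome 11 from 5710840 to 5758319 (hg19, plus strand), and its canonical TSS is at 5711020. The siCONT region ran from 5710972 to 5712280, over the TSS, the noncoding exon 1 and part of intron 1, and had 63 fragments at its summit (2.93 fpm) and a percentile of 38.4. No region was called at any TRIM22 TSS in siDLEU1. This state was found in 1 of 41 TRIM genes (2.44%) and in 5.14% of all genes with H3K27ac in siCONT, and the opposite state in 0 of 40 TRIM genes and 0.238% of all genes.

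The summit at TRIM22 can be set against what the siDLEU1 list could still call. At the median ratio of all genes it would have held 50 fragments (1.70 fpm), and 30.6% of the listed siDLEU1 regions had fewer. Where the local background was 1 control fragment, near the 0.935 at TRIM22 in siCONT, the weakest listed region had 27 fragments, and where it was 2, the weakest had 40. With no region called, the siDLEU1 H3K27ac list holds neither fragments nor a background at TRIM22, so no ratio is given. The siDLEU1 H3K4me3 summit at 5711167, near the siCONT H3K27ac summit at 5711196, had a background of 0.558 control fragments. Whether the 2 lists used the same control is not stated.

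H3K4me3 at TRIM22 was present in both lists and much lower in siDLEU1. The region ran from 5710299 to 5712603 in siCONT, with 200 fragments at the summit (7.03 fpm), and from 5710531 to 5712577 in siDLEU1, with 87 fragments (3.90 fpm). The ratio was 0.555 (95% interval 0.427 to 0.718), at percentile 0.806 of all genes with H3K4me3 in both lists, so that fewer than 1% of genes had a lower one. The percentile of fold enrichment went from 97.5 to 86.7, while the background went from 1 to 0.558 control fragments, a direction that by itself raises the fold enrichment.

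TRIM5, the retrovirus restriction factor that recognises viral capsids, starts 4716 bp from TRIM22 on the opposite strand, with its canonical TSS at 5706304. Its H3K27ac region had 71 fragments (3.31 fpm) in siCONT and 40 (1.36 fpm) in siDLEU1, a ratio of 0.411 (0.272 to 0.614), the lowest of the 40 TRIM genes and at percentile 1.76 of all genes. It narrowed from 908 bp (5705416 to 5706323, over the TSS) to 286 bp (5705742 to 5706027, inside intron 1), and its percentile went from 25 to 7.75. H3K4me3 at TRIM5 had 136 fragments (4.78 fpm) and 104 fragments (4.66 fpm), a ratio of 0.976 (0.749 to 1.27) at percentile 22.9 of all genes. The 2 marks thus differed at TRIM5, with the H3K27ac ratio near the bottom of all genes and the H3K4me3 ratio close to the lower quartile.

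TRIM34, a close relative of TRIM5 that is likewise induced by interferon, has its canonical TSS at 5646231 on the plus strand and another TSS upstream, at 5640994. H3K27ac at the canonical TSS had 98 fragments (4.56 fpm) in siCONT and 59 (2.005 fpm) in siDLEU1, a ratio of 0.439 (0.312 to 0.613) at percentile 3.38, and a region of 908 bp stood where siDLEU1 had regions of 457 and 180 bp. Another H3K27ac region of 223 bp with 29 fragments, near the upstream TSS, was in the siCONT list and not in the siDLEU1 list. The H3K27ac signal of TRIM34 was thus, like that of TRIM5, among the lowest ratios of all genes.

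H3K4me3 at TRIM34 was strongest at the upstream TSS, with 194 fragments (6.82 fpm) in siCONT and 118 (5.29 fpm) in siDLEU1, a ratio of 0.776 (0.612 to 0.981) at percentile 6.47. At the canonical TSS a single siCONT region of 2088 bp with 141 fragments (4.95 fpm) stood where the siDLEU1 list had 2 regions, of 548 and 296 bp with 64 and 60 fragments (2.87 and 2.69 fpm). The stronger of these gives a ratio of 0.579 to the siCONT region. An annotated protein-coding gene without a symbol starts 107 bp from this TSS on the other strand, and its signal cannot be told apart from that of TRIM34.

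TRIM6, which builds ubiquitin chains that act in interferon signalling, had H3K27ac with 110 fragments (5.12 fpm) in siCONT and 86 (2.92 fpm) in siDLEU1, a ratio of 0.570 (0.425 to 0.763) at percentile 45.4, in the middle of all genes. Its percentile of fold enrichment went from 75.9 to 60.0 and its region from 1691 to 1331 bp. H3K4me3 had 216 fragments (7.59 fpm) and 149 (6.68 fpm), a ratio of 0.881 (0.710 to 1.09) at percentile 13.9. The readthrough gene TRIM6-TRIM34 starts 88 bp from the canonical TSS of TRIM6, so these regions lie at both.

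TRIM68, a ubiquitin ligase that is not in the interferon list, gave the largest falls in percentile of the family, from 94.6 to 10.5 for H3K27ac and from 83.1 to 25.8 for H3K4me3. The fragments did not show the same: H3K27ac had 151 (7.03 fpm) in siCONT and 110 (3.74 fpm) in siDLEU1, a ratio of 0.532 (0.412 to 0.684) at percentile 26.8, and H3K4me3 had 91 (3.20 fpm) and 104 (4.66 fpm), a ratio of 1.46 (1.09 to 1.95). The local background at the summit went from 0.617 to 4 control fragments in the H3K27ac lists and from 0.660 to 5 in the H3K4me3 lists. Ranked by fragments instead of fold enrichment, TRIM68 had percentiles of 91.8 and 86.0 for H3K27ac and of 79.7 and 88.4 for H3K4me3. Of the 5 genes, TRIM68 was the one whose H3K4me3 fpm was higher in siDLEU1.

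**Figure D3:**
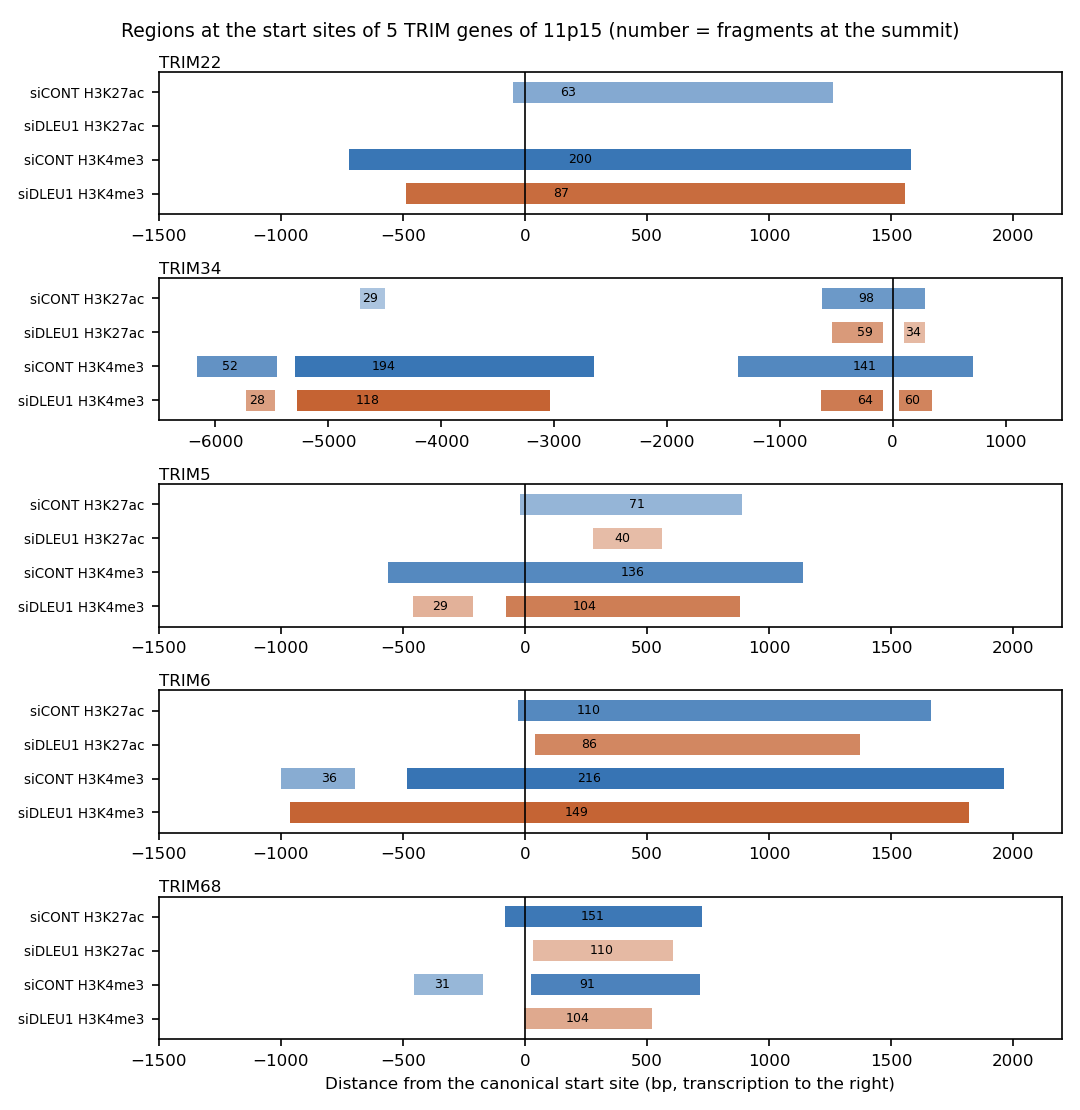
Regions at the TSSs of 5 genes of 11p15 in the 4 peak lists (rows, blue for siCONT and orange for siDLEU1, darker for a higher percentile), by distance from the canonical TSS in bp (horizontal axis, transcription to the right), with the number of fragments at each summit. TRIM22 has no H3K27ac region in siDLEU1, and at TRIM5 and TRIM34 the siDLEU1 H3K27ac regions are shorter.

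Of the 14 TRIM genes listed for interferon and antiviral roles, 13 had H3K27ac in siCONT, and TRIM31 had no region. The list was chosen with earlier results of these data known. The H3K27ac percentile was lower in siDLEU1 at 11 of the 13 (84.6%, against 62.4% of all genes), with a median change of -14.6 points (-4.32 over all genes). H3K4me3 was lower at 9 of 13 (69.2%, against 47.5%), with a median of -4.83 points (0.371 over all genes). By 20 points or more, H3K27ac was lower at 2 of the 13 (15.4%, against 18.8% of all genes). For H3K4me3 this held for 1 of the 13 (7.69%, against 8.31%). Leaving aside the 4 of them described apart, the H3K27ac percentile was lower at 7 of 9 with a median of -9.03 points, and H3K4me3 at 5 of 9 with -3.32 points. The 27 marked TRIM genes in neither list had medians of 1.85 and 2.70 points, with 13 and 12 lower. The median fpm ratios followed the same order, at 0.554 for H3K27ac and 0.976 for H3K4me3 in the interferon list and at 0.612 and 1.29 in the 27 others. Without the 4 described apart, the list had 0.554 and 1.14, with 3 of 9 below 1 for H3K4me3, close to the 1.17 of all genes.

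Within this list, TRIM38, a regulator of innate immune signalling induced by interferon, had low ratios in both marks. Its H3K27ac had 129 fragments (6.01 fpm) in siCONT and 89 (3.02 fpm) in siDLEU1, a ratio of 0.503 (0.380 to 0.665), the percentile went from 83.2 to 62.7, and the region from 971 to 471 bp. Its H3K4me3 had 210 fragments (7.38 fpm) and 127 (5.70 fpm), a ratio of 0.772 (0.614 to 0.967) at percentile 6.20, and a region of 2112 bp stood where siDLEU1 had regions of 1010 and 483 bp. TRIM38 lies on chromosome 6, so the low H3K4me3 ratios were not limited to 11p15.

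TRIM56 and TRIM65, which act on the sensing of viral DNA and RNA, had H3K27ac ratios of 0.495 and 0.512 but H3K4me3 ratios of 0.944 and 1.48. TRIM25, the ligase of the RNA sensor RIG-I, had ratios of 0.554 and 1.14, TRIM26 had 0.553 and 1.10, and TRIM23, which carries an ARF domain, had 0.566 and 1.15, all near the medians of all genes. A single H3K27ac region in siCONT was split in siDLEU1 at TRIM26, where 2190 bp became 985 and 449 bp. The same held at TRIM23, where a siCONT region of 2194 bp had a percentile of 98.3. Its siDLEU1 regions of 1029 and 870 bp had percentiles of 97.9 and 90.2. TRIM4 had 0.565 and 1.52, and TRIM14, an adaptor without a RING finger, 0.655 and 1.19.

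TRIM21, the cytosolic antibody receptor, went the other way in rank. Its H3K27ac percentile was 93.3 in siCONT and 99.4 in siDLEU1, with 181 and 140 fragments, a ratio of 0.564 (0.449 to 0.708), and its H3K4me3 percentile was 83.4 and 96.5, with 169 and 126 fragments, a ratio of 0.952 (0.750 to 1.21). The background at these summits went from 1 to 0.439 and from 2 to 0.463 control fragments. TRIM21 also lies on the short arm of chromosome 11 and holds 2 ISRE cores, and its H3K27ac ratio was near the middle of all genes. Ranked by fragments, its changes were -0.78 and -3.48 points.

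**Figure D4:**
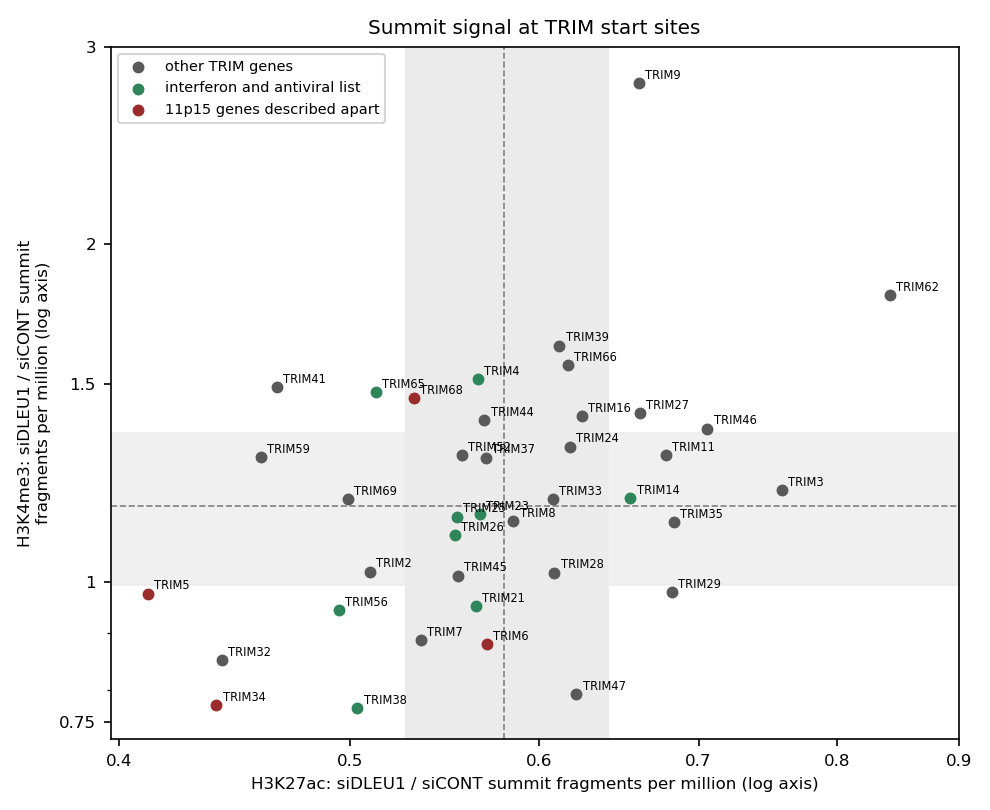
Ratio of siDLEU1 to siCONT summit fragments per 1 M reads at TRIM genes marked in all 4 lists, for H3K27ac (horizontal, log axis) and H3K4me3 (vertical, log axis). Dashed lines are the medians of all protein-coding genes (0.580 and 1.17) and grey bands their quartiles. TRIM34, TRIM5, TRIM38, TRIM56 and, from outside the interferon list, TRIM32 lie toward the lower left, and TRIM9 and TRIM62 lie at the upper right.

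The CpG split of the promoters, made after the values were seen, gave different H3K4me3 ratios, here taken from regions within 1 kb of the canonical TSS. At the 8 TRIM genes with such a region in both lists and fewer than 10 CpGs, the median H3K4me3 ratio was 0.826 and 8 of 8 were below 1. At the 25 with 20 or more CpGs the median was 1.29 and 3 were below 1. Over all genes the same split gave 1.02 and 1.19, with 47.3% and 23.7% below 1, so the order was the same and the gap was smaller. For H3K27ac the medians were 0.534 over 6 TRIM genes and 0.610 over 26, and 0.561 and 0.582 over all genes. The 8 were TRIM5, TRIM6, TRIM21, TRIM22, TRIM29, TRIM34, TRIM38 and TRIM55, and the 6 were the same genes without TRIM22 and TRIM55. All of the 8 but TRIM29 and TRIM55 are in the interferon list, and TRIM5, TRIM6, TRIM22 and TRIM34 are among the genes described apart. Low CpG content and these lists thus cannot be told apart here. The TRIM55 ratio compares different sites, as described below.

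Outside the interferon list and 11p15, the largest falls in H3K27ac percentile were at TRIM7, TRIM52 and TRIM44. TRIM7, known as a partner of glycogenin, went from 59.4 to 9.06, with 75 and 55 fragments and a ratio of 0.535 (0.371 to 0.768), and its H3K4me3 went from 69.8 to 32.1, with 59 and 41 fragments and a ratio of 0.887 (0.581 to 1.34). TRIM52 went from 84.7 to 46.4 with a ratio of 0.557, and TRIM44, whose protein lacks a RING finger, from 74.9 to 48.2 with 0.569. At the regions that gave the percentiles of these 3 genes, the H3K27ac background in siDLEU1 was between 1.84 and 2.01 times that in siCONT. Their ratios lay close to the median of all genes. At TRIM7 the ratio came from another siDLEU1 region, with 55 fragments and a background of 3 control fragments. The siDLEU1 region that gave its percentile had 40 fragments and a background of 1. The H3K4me3 summits of TRIM7 lay at 180632007 in siCONT and 180631224 in siDLEU1, with backgrounds of 0.532 and 1.30, so that ratio compares different sites. Another siDLEU1 H3K4me3 region, with its summit at 180632008, had 37 fragments and a background of 3. In H3K27ac, TRIM59 went from 61.4 to 37 at the same background in both lists, with a ratio of 0.459 (0.332 to 0.630) at percentile 5.76.

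Low H3K27ac ratios were thus also found at genes outside the interferon list. TRIM32, a ligase with NHL repeats, had 114 and 69 fragments and a ratio of 0.442 (0.323 to 0.601) at percentile 3.63. TRIM41 had 130 and 83 fragments and a ratio of 0.466 (0.349 to 0.618), and its region shortened from 2247 to 711 bp. TRIM69 had a ratio of 0.499, and with TRIM5, TRIM34, TRIM59 and TRIM56 these made up the 7 at or below 0.5. TRIM56, at 0.495, and TRIM69 were the members just inside this limit, and TRIM38, at 0.503, the one just outside.

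The 5 largest rises in H3K27ac percentile were at TRIM46, TRIM37, TRIM62, TRIM24 and TRIM9. TRIM46, which organises microtubules in the axon, went from 73.6 to 95.7, with 123 and 119 fragments and a ratio of 0.706 (0.544 to 0.916). The siDLEU1 region behind these values (155145083 to 155145805) lay upstream of the canonical TSS. Another siDLEU1 region, over that TSS (155146311 to 155146829), had a percentile of 24.6 and 45 fragments. KRTCAP2 starts 374 bp from the canonical TSS of TRIM46 on the other strand. TRIM37, a ligase acting on centrosomes and mutated in Mulibrey nanism, went from 70.1 to 90.2, with a ratio of 0.570 at a background that went from 1.12 to 0.439. TRIM24, a bromodomain cofactor of nuclear receptors, went from 50.1 to 67.7 with a ratio of 0.618 and a background that went from 1 to 0.439. Ranked by fragments, TRIM24 fell by 2.86 points and TRIM37 by 3.49. TRIM62 went from 51.7 to 70.7 with the highest ratio of the family, 0.842 (0.596 to 1.19). Of the 16 TRIM genes with a higher H3K27ac percentile, 14 had a lower background in siDLEU1, as did 24 of all 40 with a region in both lists. Of the 19 with a higher H3K4me3 percentile, 18 did, and of all 41, 30. No H3K27ac ratio of the family exceeded 1.

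**Figure D5:**
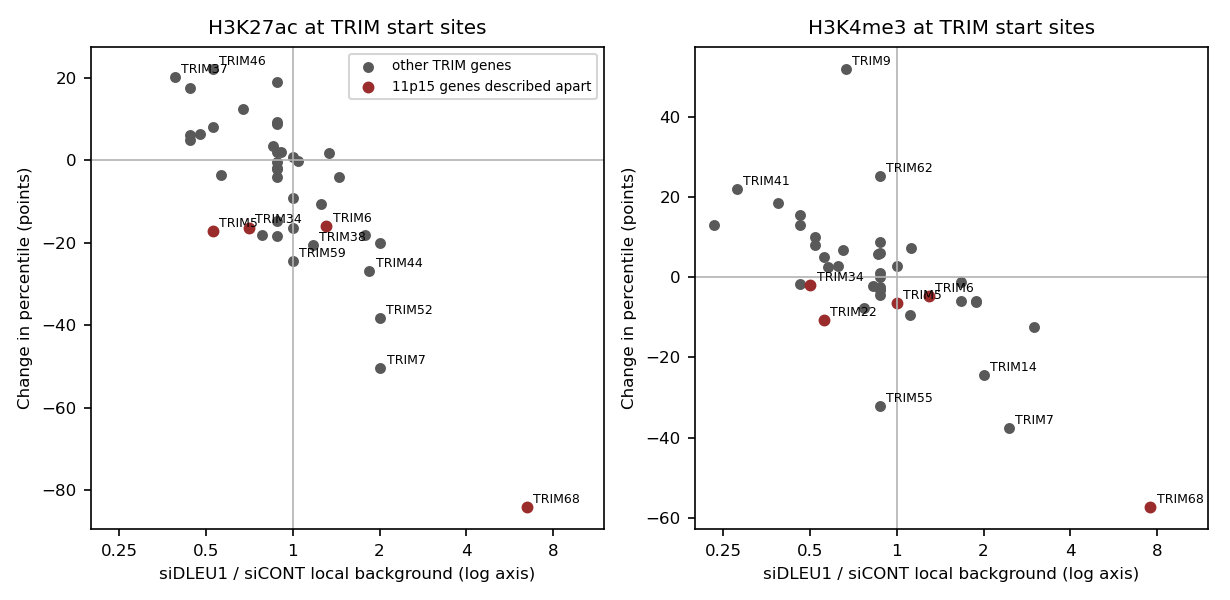
Change in percentile from siCONT to siDLEU1 in points (vertical axis) against the ratio of the local background at the summit (horizontal, log axis) for TRIM genes with a region in both lists, H3K27ac left and H3K4me3 right. TRIM68 lies at the lower right in both panels, with a background ratio of 6.48 for H3K27ac and 7.58 for H3K4me3.

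For H3K4me3 the largest rise was at TRIM9, a neuronal ligase that acts in netrin signalling. It went from a percentile of 33.3 to 85.2, with 44 fragments (1.55 fpm) in siCONT and 96 (4.31 fpm) in siDLEU1, a ratio of 2.79 (1.93 to 4.08) at percentile 99.8 of all genes. Its H3K27ac had 95 and 86 fragments and a ratio of 0.661. TRIM62 had 34 and 48 H3K4me3 fragments and a ratio of 1.80 (1.14 to 2.88). TRIM41 had 142 and 166 and a ratio of 1.49 (1.19 to 1.88), above the median, while its H3K27ac ratio was low. The H3K4me3 summits of TRIM41 lay at 180649252 in siCONT and 180650423 in siDLEU1, so its H3K4me3 ratio compares different sites. TRIM37 and TRIM59, the other 2 of the 5 largest rises, had ratios of 1.29 each, inside the quartiles of all genes.

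The largest H3K4me3 falls besides TRIM68 and TRIM7 were at TRIM55, TRIM14 and TRIM39. TRIM55 had 100 fragments (3.51 fpm) in siCONT and 39 (1.75 fpm) in siDLEU1, a ratio of 0.498 (0.335 to 0.727) at percentile 0.369, and the bases covered by its regions fell from 3754 to 1269. The summits lay 2475 bp after the nearest TSS in siCONT and 146 bp after it in siDLEU1, so this ratio compares different sites. With a window of 3 kb, which takes in further regions, the direction turned and the ratio was 1.14. TRIM14 went from 55.9 to 31.5 with a ratio of 1.19 and a background that went from 1 to 2, and TRIM39 from 88.8 to 76.4 with a ratio of 1.62 and a background that went from 1 to 3. Ranked by fragments, these 2 genes rose, by 3.63 and 6.43 points.

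Regions at TRIM genes were narrower in siDLEU1, as they were in general. The strongest H3K27ac region was narrower at 35 of 40 TRIM genes, with medians of 1160 and 823 bp and a median ratio of widths of 0.828, against 0.794 over all genes. Summed over all regions of a gene, which allows for regions that were split, the bases covered were fewer at 37 of 40, with a median ratio of 0.825, against 0.785. At the 4 genes described apart with H3K27ac in both lists, the ratio of widths had a median of 0.609. The 5 widest H3K27ac regions in siCONT were at TRIM8 (3131 bp, 1913 in siDLEU1), TRIM25 (2781 and 2433), TRIM66 (2347 and 2435), TRIM41 and TRIM23. TRIM66 was thus the exception, and at its TSS the ribosomal protein gene RPL27A starts 123 bp away on the other strand. For H3K4me3 the median ratio of widths was 0.885, against 0.939 over all genes. The strongest region of TRIM16, which extended from 5912 to 9843 bp, lay inside the gene away from its canonical TSS. At the canonical TSS its H3K4me3 region went from 983 to 963 bp.

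Genes of the same pathway under other symbols were read in the same way. PML, MID1 and MID2, which also encode tripartite motif proteins, had H3K27ac percentiles of 74.6, 46.5 and 58.5 in siCONT and of 65.7, 35.5 and 29.9 in siDLEU1, with ratios of 0.532, 0.566 and 0.463, and MEFV had no region. All 12 E2 enzymes listed as partners of RING ligases had both marks in every list. Their H3K27ac percentile was lower at 7 of 12 (58.3%, against 62.4% of all genes), with a median change of -5.97 points (-4.32 over all genes). It was lower by 20 points or more at 1 of 12 (8.33%, against 18.8%), and the median ratio was 0.544. Their median H3K4me3 ratio was 1.23, with the highest values at UBE2V2 (2.18) and UBE2N (2.10), which together form the enzyme for chains linked through lysine 63.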

How the data were processed

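ChIP-seq of H3K27ac and H3K4me3 was done in HSC3 cells, with 1 library per siRNA and mark. The inputs were not analysed here. Per the labels and methods, the authors aligned reads from an Ion Proton to hg19, using bowtie2, and called peaks with MACS2 in each library. Settings, versions and the control used in peak calling are not given in the sources used here. The fold enrichment over local background and the −log10 p and −log10 q are as deposited by the authors, and the score column was not used.

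Regions on chromosomes 1 to 22 and X were joined, by an overlap of at least 1 bp, to windows of 1 kb on either side of all TSSs of GENCODE 44 protein-coding genes lifted to GRCh37. The summit position was used for distances. The strongest region by fold enrichment gave the percentile, and the region with most fragments gave the fpm. Fragment numbers were solved from fold enrichment and p, which matched within 0.001 (−log10) at 100% of peaks, and depth assumes a genome of 2.7 Gb. The solver was tested on simulated data. Ratios have exact binomial 95% intervals and shares Wilson intervals. The alternatives are given in the closing section. The fpm ratio and its alternatives were added after the data were seen.

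The members and gene lists were chosen with earlier results of these data known. The genes named were the 5 of 11p15, those with a region in 1 list of a mark alone, the 5 largest falls and 5 largest rises per mark, the interferon list and the 5 widest H3K27ac regions. TRIM2, TRIM3, TRIM16, TRIM28, TRIM29, TRIM32, TRIM33, TRIM36 and TRIM69, the motif matches and the CpG split are not covered by it and were picked once their values were known. For motifs and CpGs a gene was marked only by a region within 1 kb of its canonical TSS, a choice made after the data were seen. The promoter sequence of 1 member is not reported here. TRIM49D1 and TRIM73 have no canonical transcript, and their 5′ end was used. Python 3.11.15, numpy 2.4.6, pandas 2.3.3, scipy 1.17.1 and matplotlib 3.10.9 were used.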

Additional observations from a re-analysis of the deposited data

How the results depend on the processing

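No paired analysis was possible because each siRNA and mark has a single library, and for the same reason no replicate could be left out. The number of TRIM genes marked in each list was within 1.5 times the reported one under every alternative tried (a −log10 q of at least 10, a window of 3 kb, 1 TSS per gene, equal numbers of regions). The genes with H3K27ac in siCONT alone were 5 at that −log10 q (TRIM22 with TRIM2, TRIM5, TRIM7 and TRIM68) and 2 with 1 TSS per gene (TRIM22 and TRIM34), and TRIM22 was among them under each of these 4 alternatives. With H3K4me3 in siCONT alone there were 3 at that q (TRIM7, TRIM14, TRIM55) and 2 with the 3 kb window (TRIM31, TRIM54), and in siDLEU1 alone 2 at that q (TRIM9, TRIM62). When regions had to share 50% of both, 9 and 8 TRIM genes had H3K27ac, and 6 and 6 had H3K4me3, with no such partner in the other list.

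The median change in H3K27ac percentile was -11.1 with that q, -0.167 with equal numbers of regions and -2.52 ranked by −log10 p. For H3K4me3 it was -0.023 with 1 TSS per gene, 0.126 ranked by −log10 p and 1.27 ranked by fragments, so its sign was not stable. Ranked by fragments, the sign of the change turned at 9 of 41 TRIM genes for H3K27ac (TRIM3, TRIM21, TRIM24, TRIM28, TRIM33, TRIM37, TRIM39, TRIM45 and TRIM69) and at 9 of 41 for H3K4me3 (TRIM14, TRIM21, TRIM24, TRIM25, TRIM33, TRIM39, TRIM44, TRIM45 and TRIM68). Among these, changes of 20 points or more became 3.63 for TRIM14 (H3K4me3), -3.49 for TRIM37 (H3K27ac) and 8.74 for TRIM68 (H3K4me3). The 3 kb window reversed TRIM55 to 1.08 points and a ratio of 1.14. The causes were not tested. The median fpm ratios stayed between 0.570 and 0.578 for H3K27ac and between 1.15 and 1.19 for H3K4me3 under 4 alternatives. The weakest listed regions had 13 to 19 fragments, which bounds what a missing region can mean.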
